A study of Mus musculus with 24 samples.

Results

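Paneth cells are secretory cells at the base of the crypts of the small intestine. The genes described here are 9 that encode their granule proteins and the enzyme that processes them: the alpha-defensin genes Defa5, Defa22, Defa24 and Defa30, the protease gene Mmp7, the lysozyme gene Lyz1, the ribonuclease gene Ang4, the lectin gene Itln1 and the pentraxin gene Mptx2. They were chosen by name, as the rows of the count table whose Ensembl identifiers map to these symbols. Earlier results of these data were known at that point. A count of members called above the share over all genes is therefore a description and not independent support. All 9 were found among 57126 rows, and all 9 passed the filter on low counts that left 13125 genes to test. Because parts of the defensin transcripts are found in more than 1 gene copy, the summed counts of the 4 listed Defa genes are given beside each of them.

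Mouse ileum, the last stretch of the small intestine, was cut into fragments, kept in medium with an additive for 8 h, and then sequenced with QuantSeq, in which every mRNA is tagged close to its polyadenylated 3′ end. The fragments were from male C57BL/6J mice, wild-type in every library and starved for 4 h. The additives were tCDCA (the taurine conjugate of chenodeoxycholic acid, a bile acid that activates the nuclear receptor FXR), the CME(-) or the CME(+) form of an extract from wild-type (WT) donors, the CME(-) or the CME(+) form of an extract from Asbt-/- donors, and the solvent DMSO. Asbt is the carrier that takes up bile acids in the ileum, and this genotype belongs to the mouse that gave the extract. The labels do not say what CME stands for, and the treatment labels of 3 libraries have CAM in its place: Asbt-/- CME(-) replicates 2 and 3 and WT CME(+) replicate 2. Their titles say CME and set the group. Here CME(+) is read as the form depleted of bile acids, because a concentration of 200 µM is given for replicates 2 to 4 of tCDCA and of both CME(-) extracts and for no CME(+) library. The stated purpose was to learn which genes endogenous bile acids regulate. The labels mark 3 of the 24 libraries as removed by the submitters, which leaves 4 libraries each of tCDCA, WT CME(-) and Asbt-/- CME(+), and 3 each of WT CME(+), Asbt-/- CME(-) and DMSO. One of those removed is DMSO replicate 1, which had 0.5% DMSO in place of 0.6%. The other two, Asbt-/- CME(-) replicate 3 and WT CME(+) replicate 2, are marked for poor mapping.

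The 21 libraries used held 2.76 to 5.6 M counts. Column names carry one numeric prefix for replicate 1 of every group and another for replicates 2 to 4. The prefixes were taken as a first and a second sequencing run, which the labels do not state, and no DMSO library of the first run was used. The difference between runs was therefore estimated from the other 5 groups in every comparison with DMSO. Mitochondrial rRNA took 5.29% of the counts in tCDCA replicate 3 and 17.57 to 34.6% in the other second-run libraries, against 6.78 to 8.29% in the first run. Whether libraries of 1 group stem from different animals is not stated, and the p-values reflect only how these libraries vary, which could be technical.

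As background, Paneth cells store antimicrobial proteins in apical granules and release them into the crypt lumen. Alpha-defensins are small cationic peptides that damage bacterial membranes; in mice they are made as inactive precursors that the matrix metalloproteinase Mmp7 cleaves. Lyz1 cuts bacterial cell wall peptidoglycan, Ang4 is an angiogenin-family ribonuclease with microbicidal activity, Itln1 is a lectin that binds microbial sugars, and Mptx2 encodes a mucosal pentraxin. Wnt signalling through TCF factors at the crypt base drives the Paneth cell programme, and Mmp7 and the defensin genes are known Wnt-dependent genes. Paneth cells lie among the crypt stem cells, whereas absorptive enterocytes line the villi.

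The second exon of a defensin gene encodes the mature peptide. The coding part of exon 2, 107 bases in each gene, is printed below from GENCODE M21 transcripts (build GRCm38, plus strand) to show how far the 4 copies can be told apart by reads. Capitals mark the bases that differ from Defa24 at the same position: 2 in Defa30, 30 in Defa5 and 42 in Defa22.

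Defa24, chr8:21735268-21735374: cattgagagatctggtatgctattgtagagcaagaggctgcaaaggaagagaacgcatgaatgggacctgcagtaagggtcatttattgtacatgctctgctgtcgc
Defa30, chr8:21135394-21135500: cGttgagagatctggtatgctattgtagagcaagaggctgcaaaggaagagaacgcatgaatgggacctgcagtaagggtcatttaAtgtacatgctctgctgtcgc
Defa5, chr8:21298172-21298278: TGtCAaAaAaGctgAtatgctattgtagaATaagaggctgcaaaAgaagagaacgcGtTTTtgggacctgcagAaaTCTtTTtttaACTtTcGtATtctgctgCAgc
Defa22, chr8:21163046-21163152: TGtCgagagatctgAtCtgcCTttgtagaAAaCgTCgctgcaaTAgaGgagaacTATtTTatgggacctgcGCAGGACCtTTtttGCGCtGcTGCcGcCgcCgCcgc

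Defa24 and Defa30 were 98.1% identical over these bases and 92.9% identical over whole transcripts. The other 5 pairs were 66.4 to 73.8% identical over these bases and 74.3 to 82.1% over whole transcripts. Of the 50-base windows along each transcript, 99.7% were also present in the transcript of another gene for Defa5, 74.9% for Defa22, 52.4% for Defa30 and 28.1% for Defa24. The gene that shared most was an unlisted copy for Defa5 (Defa34, 78.6%) and Defa22 (Defa21, 72.7%), whereas Defa24 shared 26.5% with Defa30 and Defa30 shared 28.1% with Defa24. At 75 bases the shares were 97.4% for Defa5, 56.2% for Defa22, 20.7% for Defa30 and 6.67% for Defa24. The values of single defensin genes, those of Defa5 above all, are uncertain for this reason. Among the other members the share at 50 bases was 18% for Mptx2 (with Mptx1), 16.1% for Lyz1 (with Lyz2), 4.7% for Ang4, 1.01% for Itln1 and 0% for Mmp7. Mmp7 overlaps an annotated gene on the opposite strand, AV064505, and whether the counting used strand is not stated.

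Together the 9 genes held 1.99 to 6.89% of all counts in the libraries used. Levels are given as CPM, counts relative to library size after scaling by edgeR's TMM factors. The 4 listed Defa genes summed to 28688, 25535, 36737 and 24318 CPM in tCDCA replicates 1 to 4. With the WT CME(-) extract the sum was 15225, 26613, 30479 and 33409.9 CPM in replicates 1 to 4. With WT CME(+) it was 23632, 21957 and 22136 CPM in replicates 1, 3 and 4. With Asbt-/- CME(-) it was 21051, 28407 and 43017 CPM in replicates 1, 2 and 4, and with Asbt-/- CME(+) 10107, 22485, 21374 and 19699 CPM in replicates 1 to 4. The DMSO libraries 2 to 4 had 17730, 20235 and 18805 CPM. All 4 tCDCA libraries lay above all 3 DMSO libraries. Within the second run the order of mean sums was Asbt-/- CME(-), WT CME(-), tCDCA, WT CME(+), Asbt-/- CME(+) and DMSO. Of neighbours in that order, only tCDCA and WT CME(+) had ranges that did not overlap, 24318 to 36737 CPM against 21957 to 22136 CPM. The removed libraries had 5995 CPM in WT CME(+) replicate 2, 22864 CPM in Asbt-/- CME(-) replicate 3 and 29771 CPM in DMSO replicate 1, the last far above the used DMSO libraries.

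**Figure D1:**
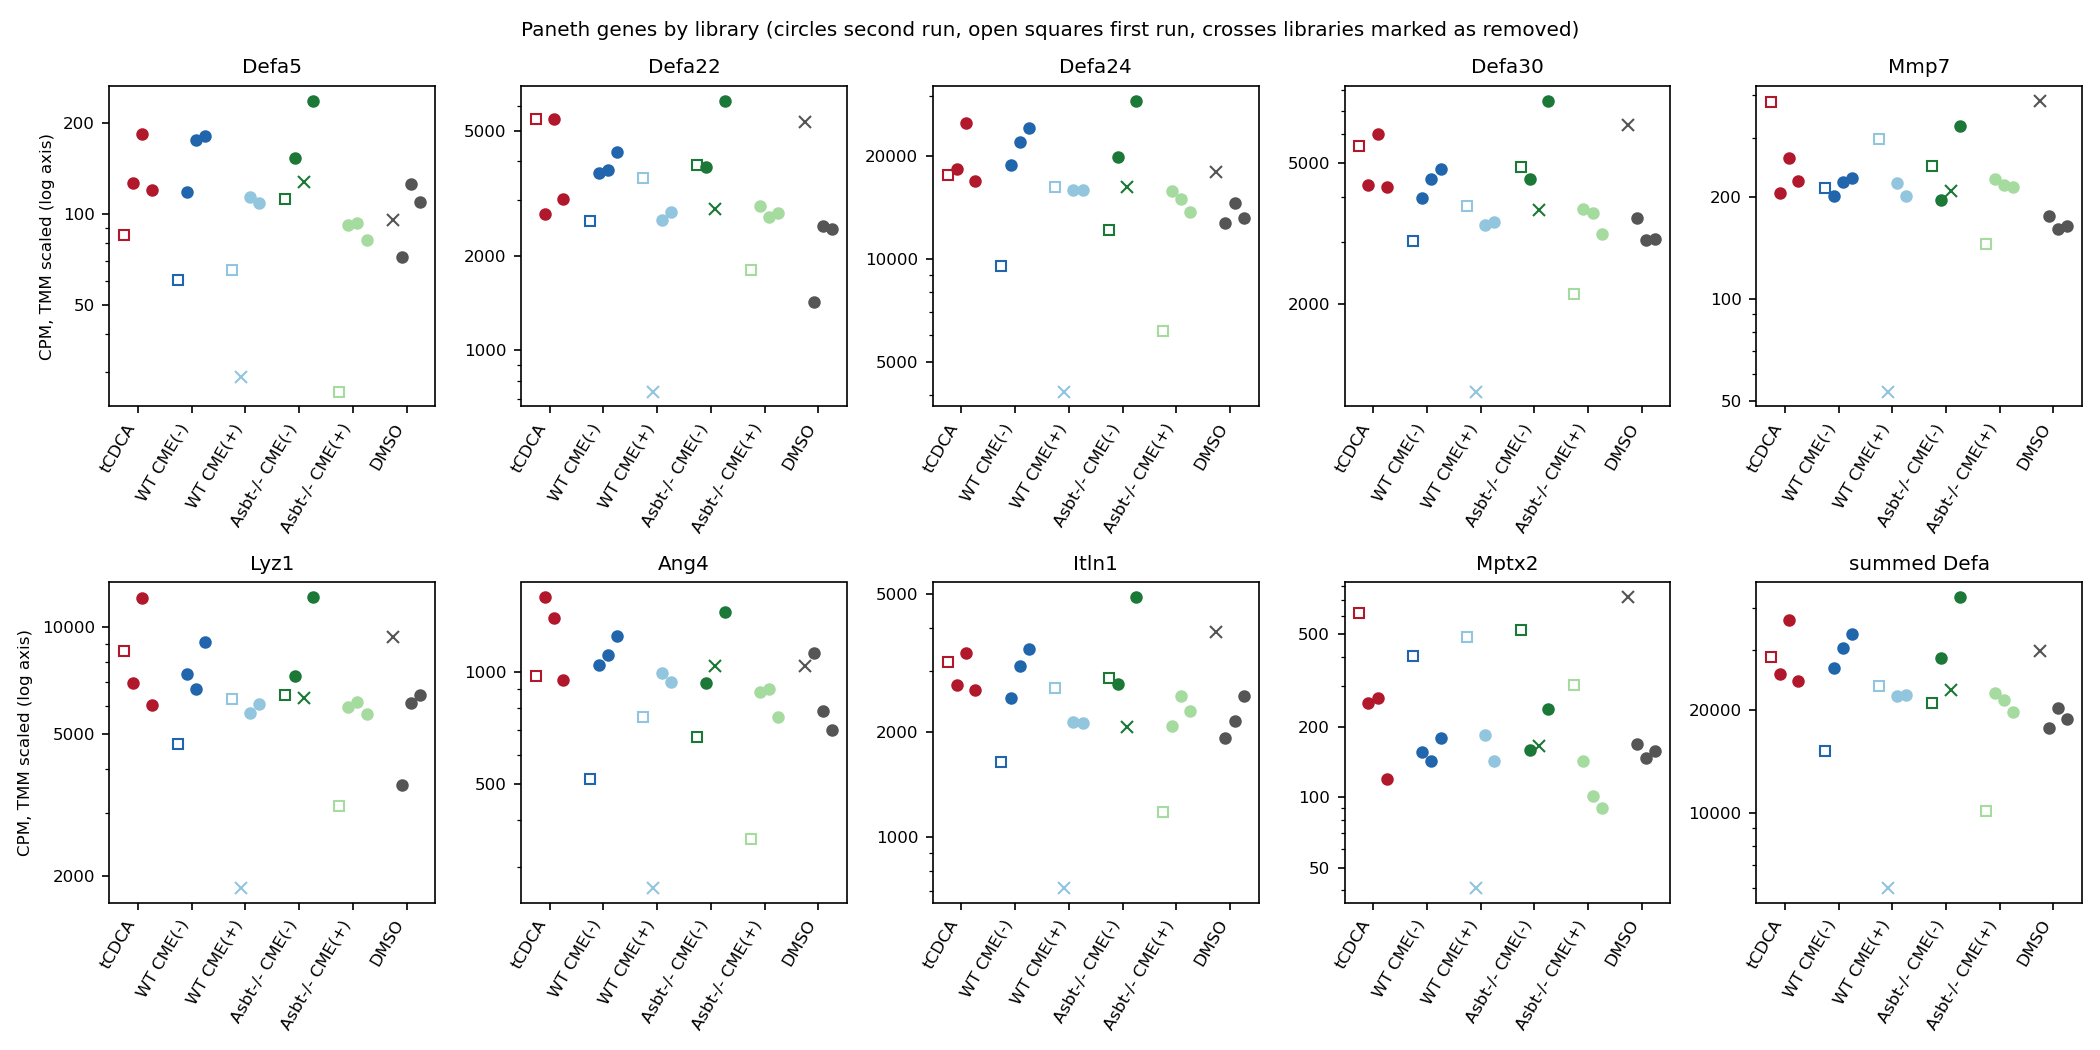
Level of each of the 9 genes and of the summed listed Defa genes in every library (CPM, TMM scaled, log axis), by group. Filled circles are second-run libraries, open squares first-run libraries and crosses libraries the submitters removed; the cross in the DMSO group, at 29771 CPM for the sum, lies above the 3 circles, at 17730 to 20235 CPM.

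Defa24 made up most of the defensin sum in every library, 57.94 to 72.45% of its counts, followed by Defa30 with 14.31 to 23.1% and Defa22 with 8.06 to 18.96%. Defa5 held 0.255 to 0.622%. These are shares of counts from transcripts of similar length, 376 to 419 bases. Their order is the reverse of that of the shared 50-base windows: 28.1% for Defa24, 52.4% for Defa30, 74.9% for Defa22 and 99.7% for Defa5. How reads that match several copies were counted is not stated, so the shares may not be those of the RNAs. The share of Defa22 was 15.01 to 18.96% in the first run and 8.06 to 14.86% in the second, so the make-up of the sum differed between runs. Mptx2 showed the same split more widely: it was at 304 to 618 CPM in the 5 used first-run libraries and at 90.0 to 265 CPM in the 16 of the second run. In bulk tissue, fewer Paneth cells and less of each RNA per cell cannot be told apart.

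With tCDCA, 4 of the 9 Paneth genes rose against DMSO: Defa22, Defa30, Ang4 and Mmp7. Of all 13125 genes tested, 5.68% were called in this comparison and 2.51% were called higher. A gene was called at a Benjamini-Hochberg adjusted p under 0.05 in edgeR's quasi-likelihood test, fitted to all 21 libraries with terms for group and run. All 9 genes had a positive log2 change, from 0.45 to 1.01, with a median of 0.69 against 0.00 over all genes tested. The summed Defa counts were 1.69-fold as high, a log2 change of 0.75 ± 0.22 (SE, 95% interval 0.31 to 1.20).

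Defa22 was at 5440.2, 2716, 5458 and 3022 CPM in tCDCA replicates 1 to 4, against 1429, 2487 and 2435 CPM in DMSO replicates 2 to 4. The groups did not overlap, and replicates 1 and 3 of tCDCA stood highest. Replicate 3 had 5.29% mitochondrial rRNA, against 33.14 and 28.14% in replicates 2 and 4 of its run and 7.69% in replicate 1. The part of this difference in the Defa22 values was not tested. The log2 change of Defa22 was 1.01 ± 0.27 (SE) or 2.01-fold (edgeR adjusted p = 0.0296). Defa30 was at 5563, 4335, 6019 and 4278 CPM in the 4 tCDCA libraries, against 3493, 3022 and 3054 CPM in the 3 DMSO libraries. Here too every tCDCA library was above every DMSO library, and the log2 change was 0.73 ± 0.20 (edgeR adjusted p = 0.0223). Mmp7, the activating protease, was at 381, 205, 260.4 and 223 CPM with tCDCA, against 175, 161 and 165 CPM with DMSO. The log2 change of Mmp7 was 0.63 ± 0.19 (edgeR adjusted p = 0.0426), again with no overlap. These DMSO libraries are all of the second run, whereas tCDCA replicate 1 is of the first. The removed first-run DMSO library had 6387 CPM of Defa30 and 386 CPM of Mmp7, above every tCDCA library. Its 5346 CPM of Defa22 lay above tCDCA replicates 2 and 4. The share of all genes without overlap was not counted, here or in the other comparisons.

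Ang4 was at 976, 1585, 1392 and 949 CPM with tCDCA, against 1123, 785 and 697 CPM with DMSO. One DMSO library, replicate 2, was above tCDCA replicates 1 and 4, so the groups overlapped although the gene was called (log2 0.69 ± 0.20, edgeR adjusted p = 0.0361). Defa24, with the most counts of the 4 defensins, was at 17600.3, 18358, 25075 and 16898 CPM with tCDCA, against 12737, 14600.0 and 13207 CPM with DMSO. Its log2 change of 0.72 ± 0.23 lay just outside the threshold (edgeR adjusted p = 0.0505), although the groups did not overlap. The removed first-run DMSO library had 17940 CPM of Defa24, above tCDCA replicates 1 and 4. Lyz1 (0.76 ± 0.25, adjusted p = 0.0669), Defa5 (0.58 ± 0.22, adjusted p = 0.136), Itln1 (0.54 ± 0.22, adjusted p = 0.178) and Mptx2 (0.45 ± 0.20, adjusted p = 0.225) were not called by edgeR. DESeq2 called 6 of the 9, adding Defa24 and Lyz1 to the 4. Over the 20 alternatives for this comparison, DESeq2 among them, 177 to 993 of all genes were called, against 745 in the main fit.

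**Figure D2:**
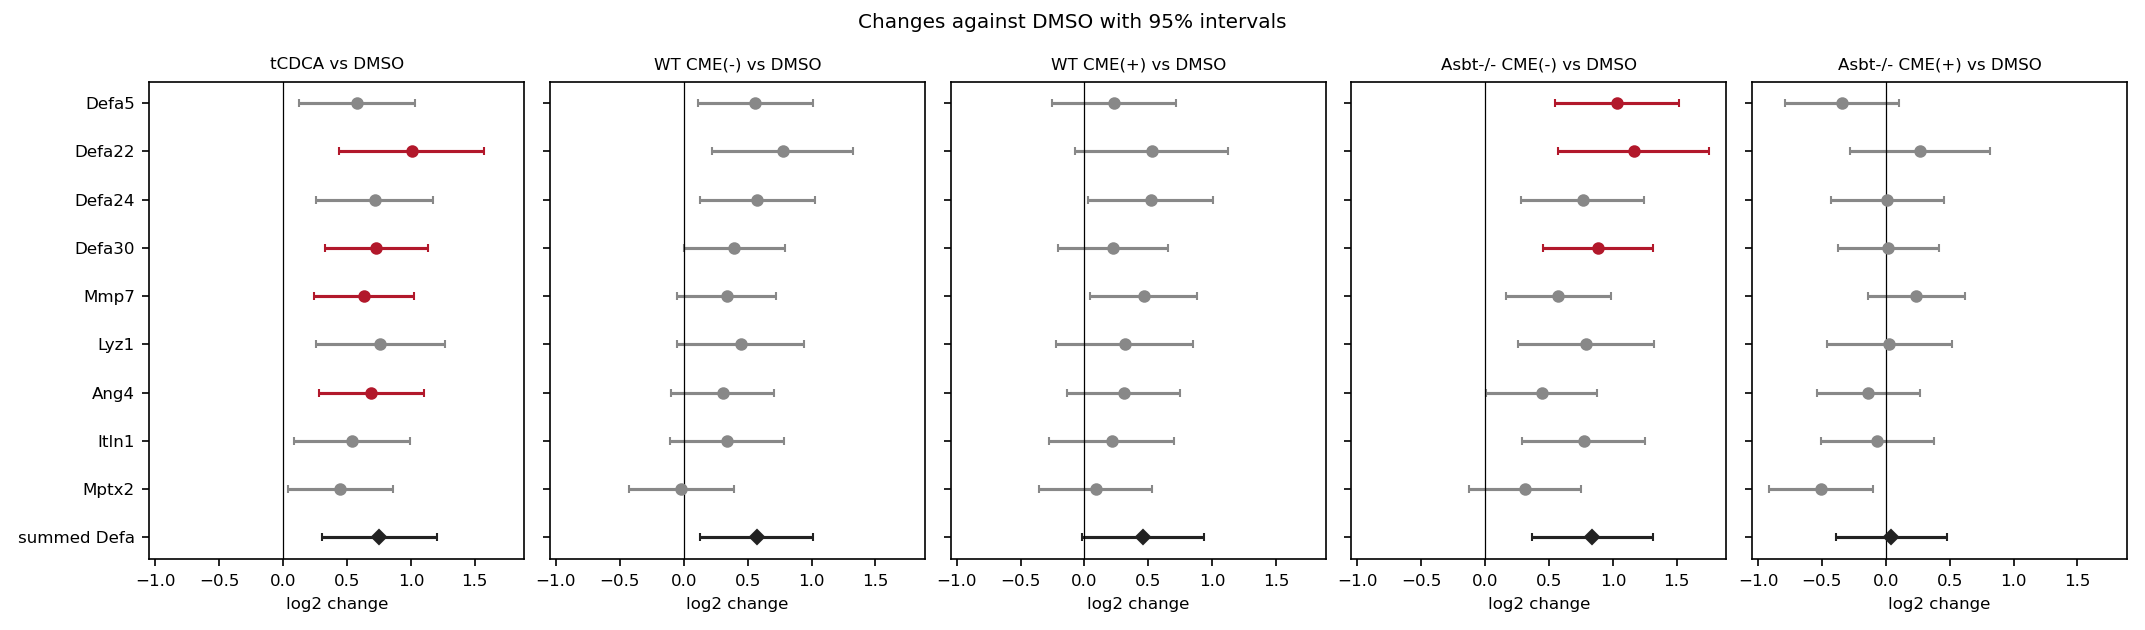
Log2 change with 95% interval of the 9 genes and of the summed listed Defa genes (black diamonds) for each treatment over DMSO, from edgeR with group and run terms; red points were called at an adjusted p under 0.05 and grey points were not. Red points appear for 4 genes with tCDCA and 3 with the Asbt-/- CME(-) extract.

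The tCDCA count of 4 depended on single libraries. It was 1 without tCDCA replicate 1, 1 without tCDCA replicate 3, 7 without tCDCA replicate 4, 2 without DMSO replicate 2, and 0 without DMSO replicate 3 or DMSO replicate 4. With the removed DMSO replicate 1 added it was 0, and the summed Defa change was 0.39 in place of 0.75. In the second run alone, where each group has 3 libraries, all 9 genes were higher with tCDCA (median log2 ratio of means 0.57), and edgeR called 1. In the first run the only contrast is tCDCA replicate 1 against the removed DMSO replicate 1: 1 of the 9 genes was higher with tCDCA and the median log2 ratio was -0.13. The 2 runs therefore did not show the same direction, with 1 library a side in the first and a different DMSO concentration there.

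Markers of other cell types moved in the same comparison. Of 16 enterocyte marker genes tested, 12 fell and none rose, with a median log2 change of -1.56. Their summed level was 2429.7 to 4524 CPM in the second-run tCDCA libraries, against 8053 to 13136 CPM in the DMSO libraries. The brush border peptidase genes Anpep (-1.55 ± 0.22, adjusted p = 2.14e-05) and Dpp4 (-1.22 ± 0.18, adjusted p = 1e-05) were among those that fell in the edgeR test. Of 9 enteroendocrine markers 3 rose, the tachykinin gene Tac1 (1.42 ± 0.25), the proglucagon gene Gcg (0.93 ± 0.22) and the cholecystokinin gene Cck (0.95 ± 0.23). Of 7 goblet markers 2 fell, the mucus protein genes Fcgbp (-0.71 ± 0.17) and Zg16 (-0.56 ± 0.17). Of 6 general epithelial genes 1 rose and 1 fell, and the median was -0.08. No tuft, lymphocyte, myeloid, smooth muscle or fibroblast marker was called, but all 5 fibroblast markers had negative changes (-0.83 to -0.46, median -0.63), with sums of 214 to 425 CPM in the second-run tCDCA libraries, against 434 to 459 CPM with DMSO. Enterocyte, goblet, enteroendocrine and Paneth markers were all present, as the tissue label implies, and smooth muscle markers were too. The part of these shifts in the Paneth gene values was not tested.

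**Figure D3:**
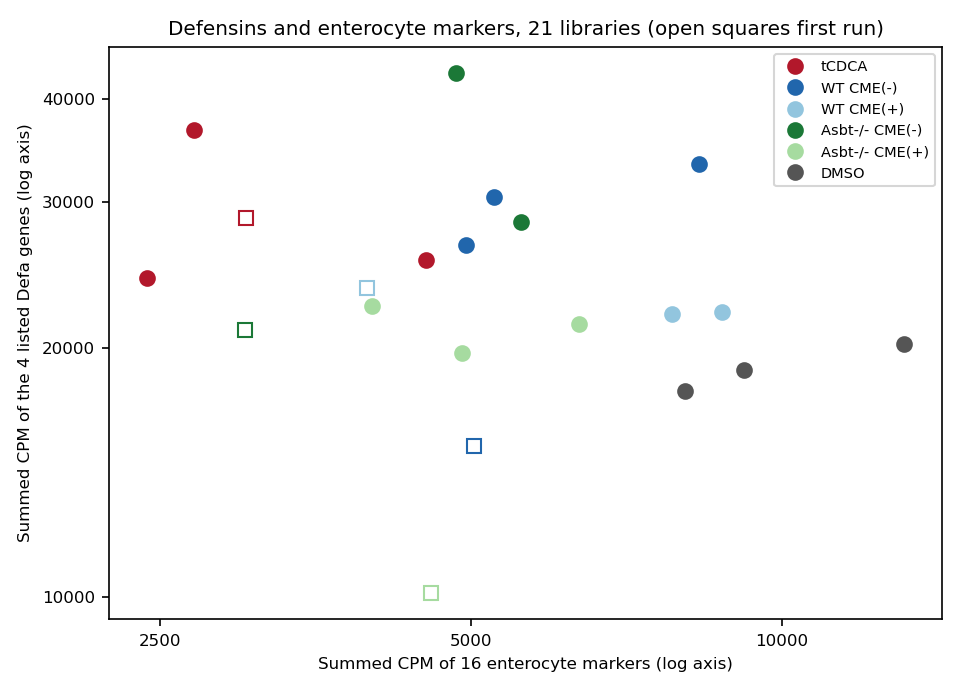
Summed CPM of the 4 listed Defa genes (vertical axis) against summed CPM of 16 enterocyte markers (horizontal axis) in each library, coloured by group, both axes logarithmic. Filled circles are second-run libraries and open squares first-run libraries. The 4 tCDCA libraries lie at 2429.7 to 4524 CPM on the enterocyte axis, and the 3 DMSO libraries at 8053 to 13136 CPM.

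Other Paneth genes were counted from lists that were drawn up with results of these data known. Among 15 other defensin rows tested, 2 rose with tCDCA and none fell, with a median log2 change of 0.79. These were Defa29 (0.70 ± 0.22, edgeR adjusted p = 0.0479) and Defa37 (2.05 ± 0.62, edgeR adjusted p = 0.0407), and every 50-base window of the Defa37 transcript is also found in another gene's. Of 17 genes tested from a wider list of Paneth and related products, 4 rose and 1 fell. Reg4, a C-type lectin gene of secretory cells, rose by 0.97 ± 0.27, the antibacterial lectin gene Reg3g by 0.86 ± 0.23 and the defensin-related Gm14851 by 0.75 ± 0.21, whereas Guca2b, which encodes uroguanylin, fell by 1.17 on the log2 scale (SE 0.23). Of 23 genes of the Paneth and secretory programme, 3 rose and none fell, with a median of 0.46. They were the transcription factor gene Sox9, which Paneth cells require (0.73 ± 0.23, adjusted p = 0.0456), the receptor gene Ephb3, which keeps Paneth cells at the crypt base (1.45 ± 0.44, adjusted p = 0.039), and the surface marker gene Cd24a (0.56 ± 0.17, adjusted p = 0.0386). Of 12 crypt stem cell genes and Wnt targets, 1 rose, the Wnt target Cd44 (0.76 ± 0.17, adjusted p = 0.00445 in edgeR), and the median of that list was 0.01.

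The promoters of the members were searched for motifs. Short RefSeq windows on GRCm38.p6 that span each gene's start were present for 7 of the 9 members, as 8 windows because Mmp7 has a pair that overlap. Defa5 and Defa24 had no window and could not be searched. The TCF/LEF core CTTTGAT, read on either strand, was in 4 of the 8 windows (Defa22, Defa30 and both of Mmp7), against 3.73% of 32851 promoters. Both Mmp7 windows hold the same site, in the stretch where they overlap, so the matches belong to 3 of the 7 genes. The related core CTTTGTT was in none of the 8 windows and in 5.85% of all promoters. The FXR inverted repeat, AGGTCA and TGACCT with any 1 base (N) between them, was in none of the 8 and in 3 promoters in all. An exact match this rare (0.00913% of promoters) would be absent from 8 windows in nearly any case. Its absence therefore does not inform on these genes. The 3 member promoters with the CTTTGAT core belong to genes called with tCDCA. Ang4, also called, had no match, and neither had Lyz1, Itln1 and Mptx2, which were not called. The 3 promoters are printed on the plus strand, with capitals marking the core, which reads ATCAAAG on this strand.

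Defa22, chr8:21162027-21162326: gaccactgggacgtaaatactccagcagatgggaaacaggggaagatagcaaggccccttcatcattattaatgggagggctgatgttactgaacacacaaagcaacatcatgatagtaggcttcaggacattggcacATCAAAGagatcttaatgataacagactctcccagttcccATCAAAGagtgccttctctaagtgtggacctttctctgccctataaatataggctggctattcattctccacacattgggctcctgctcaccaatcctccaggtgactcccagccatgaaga
Defa30, chr8:21134400-21134699: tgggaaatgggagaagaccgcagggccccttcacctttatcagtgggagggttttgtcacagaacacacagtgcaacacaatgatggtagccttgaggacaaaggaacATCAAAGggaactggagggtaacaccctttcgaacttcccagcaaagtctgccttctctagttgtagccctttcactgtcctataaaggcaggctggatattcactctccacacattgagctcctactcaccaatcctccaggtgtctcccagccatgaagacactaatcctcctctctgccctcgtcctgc
Mmp7, chr9:7691840-7692139: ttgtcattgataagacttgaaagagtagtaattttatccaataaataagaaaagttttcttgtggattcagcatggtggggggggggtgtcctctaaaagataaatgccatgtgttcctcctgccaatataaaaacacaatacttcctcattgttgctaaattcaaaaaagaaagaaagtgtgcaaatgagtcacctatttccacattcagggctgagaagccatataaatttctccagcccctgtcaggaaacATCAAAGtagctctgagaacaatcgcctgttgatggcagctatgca

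The promoters of Defa22 and Defa30 were 65.8% identical. A match is a description of these letters and not of a bound site, and the 3 genes are not independent cases because the 2 defensin promoters are related.

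With the Asbt-/- CME(-) extract, 3 of the 9 genes rose against DMSO, all of them defensins: Defa5, Defa22 and Defa30. Of all genes tested 0.952% were called and 0.381% were called higher. Defa5 was at 112, 154 and 238 CPM in replicates 1, 2 and 4 of the extract group, against 72.2, 126 and 109.5 CPM in DMSO replicates 2 to 4. The lowest extract library, from the first run, lay within the DMSO range, and the log2 change with the run term was 1.03 ± 0.24 (2.05-fold, edgeR adjusted p = 0.0282). Defa22 was at 3881, 3822 and 6242 CPM, against 1429, 2487 and 2435 CPM with DMSO, with no overlap (1.16 ± 0.29, edgeR adjusted p = 0.0497). Defa30 was at 4862, 4489 and 7467 CPM, against 3493, 3022 and 3054 CPM, also without overlap (0.88 ± 0.21, edgeR adjusted p = 0.03). All 9 changes were positive, with a median of 0.77 against -0.01 over all genes. The summed Defa change was 0.84 ± 0.23. Replicate 4 of the extract group was highest for 8 of the 9 genes, Mptx2 being the exception. The count of 3 was 0 without replicate 1 or replicate 4 of the extract group, 1 without DMSO replicate 2, 0 without DMSO replicate 3 or 4, and 0 with DMSO replicate 1 added. In the first run the extract library was higher than the removed DMSO replicate 1 for 1 of the 9 genes. Of the 16 enterocyte markers 1 fell in this comparison, the peptide transporter gene Slc15a1 (-1.51 ± 0.29, adjusted p = 0.00931 in edgeR), and the median was -0.82. The markers summed to 4836 to 5592 CPM in the second-run extract libraries, against 8053 to 13136 CPM with DMSO, and their part in the Paneth gene values was not tested.

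The remaining extracts gave no called Paneth gene against DMSO in edgeR or in DESeq2. With WT CME(-) 0 of 9 were called, where 0.297% of all genes were, and 3 had an unadjusted p under 0.05, where 9.4% of all genes did. The median log2 change was 0.40, Mptx2 had the smallest change, -0.02, and Defa22 the largest, 0.77 ± 0.27 (95% interval 0.22 to 1.33, edgeR adjusted p = 0.303). With WT CME(+) 0 of 9 were called (0.168% of all genes), 2 had an unadjusted p under 0.05 (10% of all genes), and the median was 0.31. Those changes ran from 0.09 for Mptx2 to 0.53 for Defa22, with 0.52 for Defa24 and 0.46 for Mmp7. With Asbt-/- CME(+) 0 of 9 were called (2.31% of all genes), and 1 had an unadjusted p under 0.05 (15.2% of all genes). The median there was 0.01, and the changes ran from -0.51 for Mptx2 to 0.27 for Defa22. The summed Defa change was 0.57 ± 0.22 with WT CME(-), 0.46 ± 0.24 with WT CME(+) and 0.04 ± 0.22 with Asbt-/- CME(+), whose interval ran from -0.39 to 0.48. These comparisons share the DMSO libraries with each other and with tCDCA. Reg3g, which is not a member, rose in the last group (1.31 ± 0.24, edgeR adjusted p = 0.0015), as did Cd24a, Ephb2 and Sox9 of the Paneth and secretory programme.

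Comparing the 2 forms of an extract asks what changes when its bile acids are depleted, as far as CME(+) is that form. DMSO is on neither side of these comparisons, and both runs are on both sides, although the DMSO libraries are part of the same fit. For the Asbt-/- donors, Defa5 rose with CME(-) against CME(+), as 1 of 3 genes called in the whole transcriptome (0.0229% of those tested, 0.0152% called higher). Defa5 was at 112, 154 and 238 CPM in CME(-) replicates 1, 2 and 4, against 25.8, 92.4, 93.6 and 82.1 CPM in CME(+) replicates 1 to 4. Every CME(-) library was above every CME(+) library, in each run and across runs. The log2 change was 1.37 ± 0.22 (95% interval 0.93 to 1.81), 2.59-fold, with an edgeR adjusted p of 0.00559. It lay between 1.15 and 1.57 in the 21 alternatives run, 15 of which kept the call. The call was lost without CME(-) replicate 4 (1.25, adjusted p = 0.131) and with DMSO replicate 1 added to the fit (1.33, adjusted p = 0.0787), and in the second run alone the adjusted p was 0.0544 in edgeR. Because 99.7% of the 50-base windows of Defa5 lie in other transcripts, reads of Defa5 may not be told apart from those of Defa34 and other copies. These windows span the whole transcript, and the 3′ end that QuantSeq tags was not looked at alone.

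The other 8 genes were not called by edgeR in the Asbt-/- pair, but all changes were positive. Defa30 was at 4862, 4489 and 7467 CPM with CME(-), against 2130, 3710.4, 3605 and 3139 CPM with CME(+), without overlap (0.86 ± 0.19, adjusted p = 0.0889 in edgeR). The median over the 9 was 0.82 against -0.01 over all genes, and 8 had an unadjusted p under 0.05, where 7.12% of all genes did. Mmp7 had the smallest change, 0.33 ± 0.19, with an interval from -0.04 to 0.71. The summed Defa change was 0.80 ± 0.21. Both runs had all 9 genes higher with CME(-), by a median log2 ratio of 1.04 in the first and 0.73 in the second. In the first run this is 1 library a side, and the 9 genes varied together, so they are not separate cases. Replicate 1 of CME(+) was the lowest library of its group for 8 of the 9 genes, with a Defa sum of 10107 CPM. DESeq2 called 6 of the 9 in this pair, all higher: Defa5, Defa22, Defa24, Defa30, Itln1 and Mptx2. Over the 21 alternatives, DESeq2 among them, 0 to 75 of all genes were called in this pair, against 3 in the main fit.

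For the WT donors none of the 9 genes was called between CME(-) and CME(+), by edgeR or DESeq2, and none had an unadjusted p under 0.05. In edgeR 0% of all genes were called, 831 (6.33%) had an unadjusted p under 0.05, and DESeq2 called 12. The changes ran from -0.13 for Mmp7 to 0.33 for Defa5, with a median of 0.13. The interval of the summed Defa change, 0.11 ± 0.22, ran from -0.33 to 0.55, and without scaling factors the change was -0.08. The runs went in opposite directions. In the first run all 9 genes were lower with CME(-), by a median of -0.46, the Defa sum being 15225 CPM with CME(-) and 23632 CPM with CME(+). In the second run 8 of 9 were higher (median 0.39), with 26613 to 33409.9 CPM for the sum against 21957 to 22136 CPM. The fitted changes combine these opposite values from both runs.

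**Figure D4:**
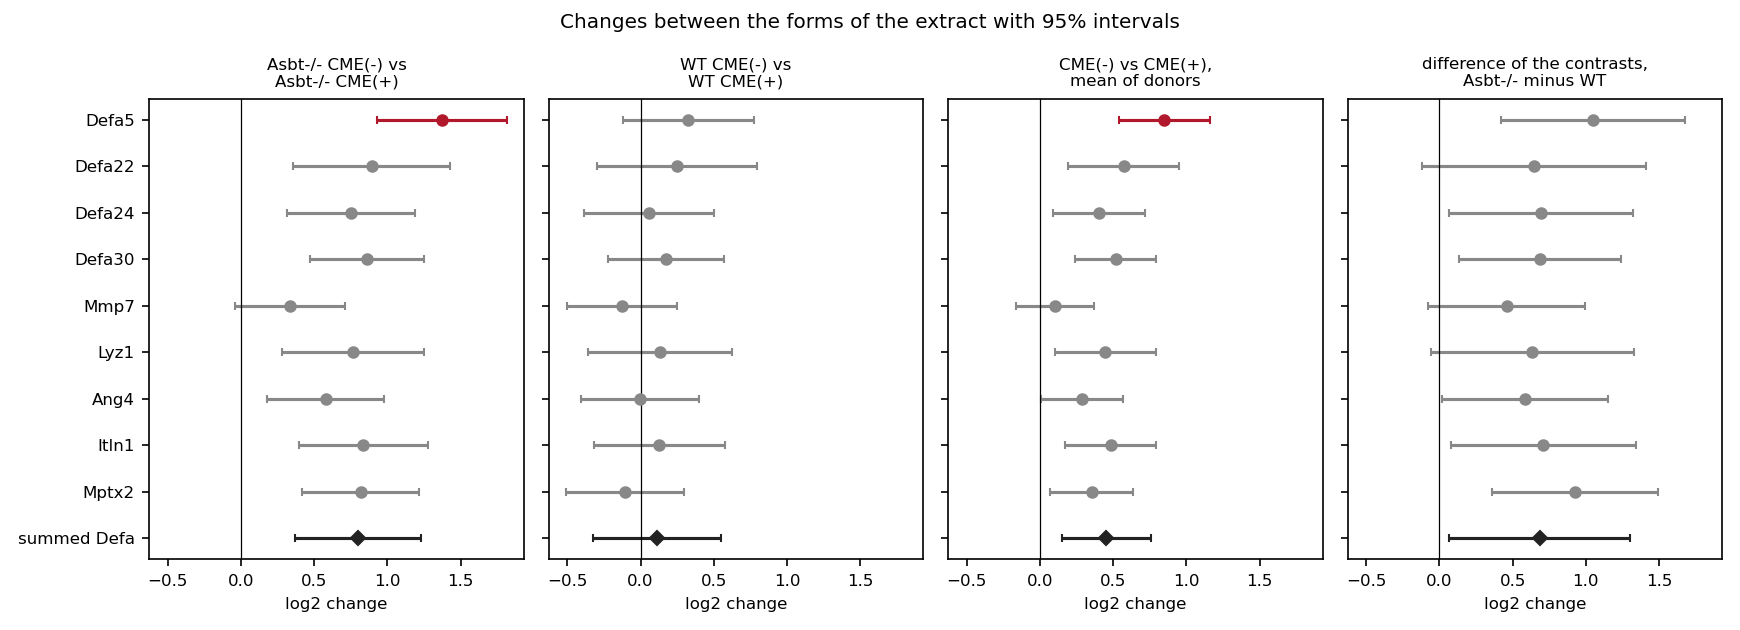
Log2 change with 95% interval of the 9 genes and the summed listed Defa genes (black diamonds) for CME(-) over CME(+), by donor, for the mean of both donors and for the difference between donors (Asbt-/- minus WT). Red points were called; Defa5 alone is red, at 1.37 for the Asbt-/- donors and 0.85 for the mean of both donors.

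Averaged over both donors, Defa5 was again called higher with CME(-) (0.85 ± 0.15, edgeR adjusted p = 0.00853), while 0.45% of all genes were called and 0.16% were called higher. The other 8 genes had changes from 0.10 for Mmp7 to 0.57 for Defa22 and were not called. The count of 1 was 3 without WT CME(+) replicate 1, and 3 with DESeq2. Of all genes, 1 to 206 were called over the 28 alternatives, against 59 in the main fit. Among other defensin rows Defa26 rose in this average (0.65 ± 0.14, adjusted p = 0.0322), and Reg3g fell (-0.72 ± 0.16, adjusted p = 0.0322 in edgeR). The difference between the donors' contrasts was positive for all 9 genes, from 0.46 to 1.05, with a median of 0.69. No gene of the 9 was called for that difference in edgeR or DESeq2, and 0% of all genes were. All 9 adjusted p were 1, and 6 of the 9 had an unadjusted p under 0.05, where 3.74% of all genes did. So the larger change with the Asbt-/- extract was not shown to differ from that with the WT extract. Smooth muscle markers moved with the form too: 5 of 5 were higher with CME(-), with a median of 0.74 for the Asbt-/- and 0.61 for the WT donors, and 1 of them, Acta2, was called in the average (0.54 ± 0.13, adjusted p = 0.0453). Their part in the Paneth gene values was not tested. Mitochondrial rRNA moved with the form as well. It took 24.6 to 31.86% of the counts in the used second-run CME(-) libraries, against 17.57 to 22.03% in the CME(+) ones, without overlap. In the first run it took 8.29% with CME(-) against 6.78% with CME(+) for the Asbt-/- donors, and 7.95% against 7.15% for the WT donors. With its rows and the abundant unnamed rows left out, the Defa5 change between the Asbt-/- forms was 1.38 (edgeR adjusted p = 0.00585). Enterocyte markers had a median of -0.14 for the Asbt-/- and -0.17 for the WT donors, with none called.

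Between donors, at the same form, no Paneth gene was called by edgeR or DESeq2. With CME(-), Asbt-/- against WT donors gave a median of 0.35, 9 of 9 positive, with 2 unadjusted p under 0.05 (4.05% of all genes) and 0% of all genes called. The changes ran from 0.14 for Ang4 to 0.49 for Defa30. With CME(+) the median was -0.29, none positive, with 4 unadjusted p under 0.05 (4.26% of all genes) and 0% of all genes called. The changes there ran from -0.60 for Mptx2 to -0.20 for Defa30. In the second run alone the CME(+) difference of the Defa sum was -0.06, in place of -0.41, and the first-run pair had 10107 CPM for the Asbt-/- and 23632 CPM for the WT donors, 1 library a side.

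tCDCA and the CME(-) extracts were labelled at the same 200 µM in the second run, and the labels give no concentration for the first. Between tCDCA and WT CME(-) 0 of 9 genes were called (0.541% of all genes), and 2 had an unadjusted p under 0.05 (10.7% of all genes). The changes ran from 0.02 for Defa5 to 0.47 for Mptx2, and the summed Defa change was 0.18 ± 0.20 (interval -0.22 to 0.59). Between tCDCA and Asbt-/- CME(-) 0 of 9 were called (0.114% of all genes), and 1 had an unadjusted p under 0.05 (8.3% of all genes). The changes ran from -0.45 for Defa5 to 0.25 for Ang4. The summed Defa change was -0.09 ± 0.21 (interval -0.52 to 0.34), and 0.02 without scaling factors. DESeq2 called none of the 9 in either. These misses of the threshold do not show that tCDCA and the extracts act alike.

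The 9 genes varied together across libraries. Pearson correlations of log2 CPM with the run difference removed, over the 21 libraries, ran from 0.51 (Mmp7 with Mptx2) to 0.96 (Defa22 with Lyz1). With the summed Defa counts they ran from 0.67 for Mptx2 and 0.83 for Ang4 to 0.99 for Defa24, which dominates the sum. The 5 other genes whose pattern was most like that sum were Gm14851 (0.95), AY761184 (0.89), the colipase gene Clps (0.87), the lipase-related gene Pnliprp2 (0.83) and the ribosomal protein gene Rpl17 (0.81). The points share library preparation and scaling, and Gm14851 shares 45% of its 50-base windows with Defa29, so these values are descriptions.

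Single copies of some unlisted Paneth genes behaved quite differently from the 9. Gm7849 and Gm7861, which share 100% and 97.6% of their 50-base windows with other genes, ran from 39.7 to 4137 CPM and from 15.7 to 2952 CPM over the 21 libraries. In tCDCA replicate 4 Gm7849 was at 4137 CPM and Gm7861 at 15.7 CPM. In tCDCA replicate 2 they were at 402 and 2376 CPM. The sum of the pair varied 7.28-fold, against 104-fold and 189-fold for each alone. Defa2, with 100% of windows shared, varied 42.7-fold. By contrast the members varied 2.62-fold (Mmp7) to 9.25-fold (Defa5), and the summed Defa counts 4.26-fold. Which copy received the reads was not tested.

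**Figure D5:**
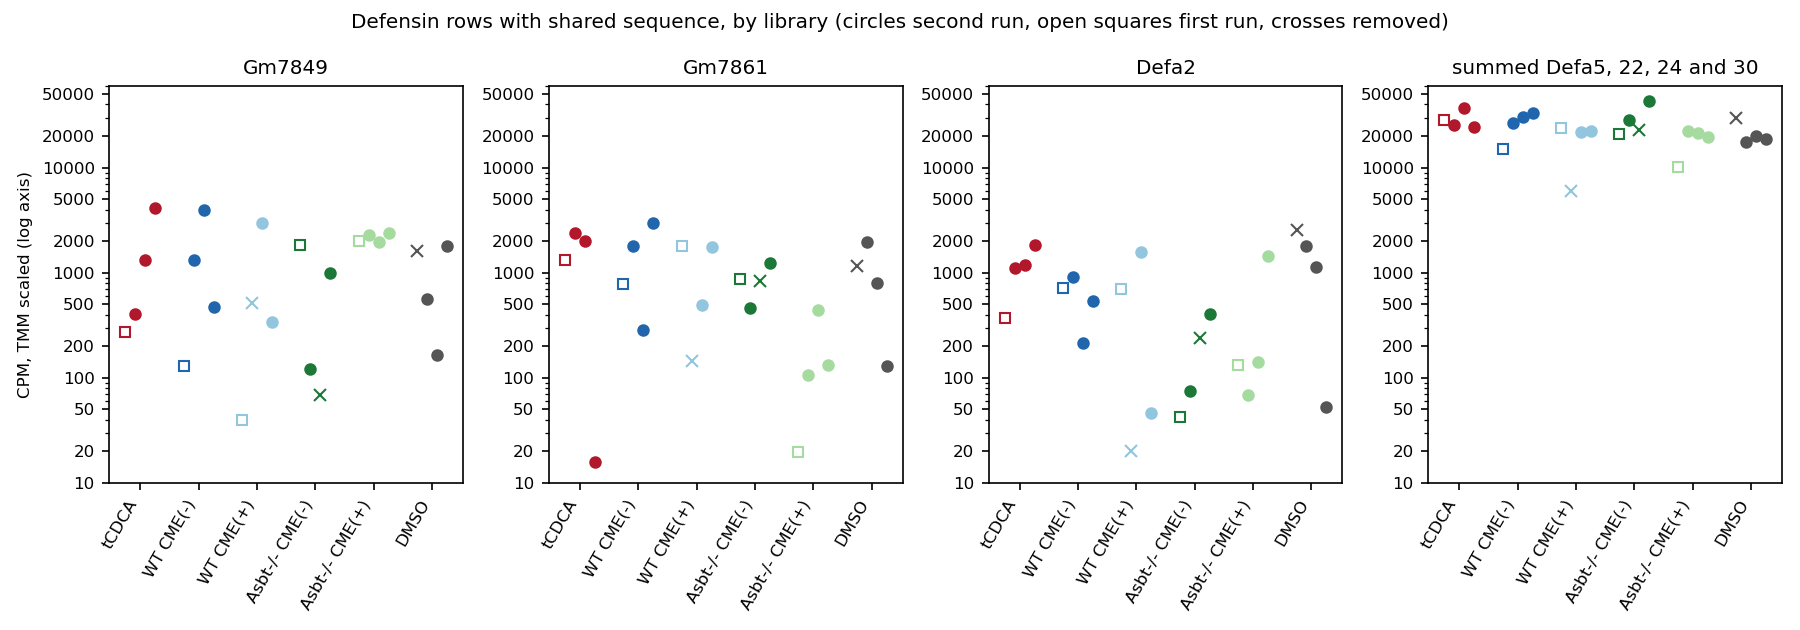
CPM of Gm7849, Gm7861, Defa2 and the summed listed Defa genes in each library (TMM scaled, log axis), by group; filled circles are second-run libraries, open squares first-run libraries and crosses libraries the submitters removed. Gm7849 spans 39.7 to 4137 CPM and Gm7861 15.7 to 2952 CPM within and across groups, while the summed Defa genes stay between 10107 and 43017 CPM in the libraries used.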

How the data were processed

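The deposited table holds raw counts, whole numbers for each gene in 24 libraries. HISAT2, cutadapt, Picard and FastQC and the build GRCm39 are named in the submitters' processing notes. Their versions, the annotation, the counter and its strandedness: not given in the sources used here. Identifiers were matched without version numbers to GENCODE M21 symbols (GRCm38): 51884 of 57126 matched, with 88.4% of the counts.

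Differences among 21 libraries were fitted to the counts with edgeR 4.0.16 under R 4.3.3 (filterByExpr, TMM, robust quasi-likelihood fit, terms for group and run). The 13 comparisons were contrasts of 1 fit, two-sided, with Benjamini-Hochberg adjustment over 13125 genes, called at an adjusted p under 0.05. Over all genes the biological coefficient of variation was 0.266. The standard error is the log2 change divided by the root of F. Summed Defa changes come from a fit with the 4 rows replaced by their sum and have no p. A test on simulated data for tCDCA against DMSO recovered 37% of genes changed by 1 log2 unit and 99% of those changed by 2, with 8 false calls among 13125 genes. Alternatives were other scalings, filters, terms and library sets, and DESeq2 1.42.0.

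The 9 members were to be given in every comparison; where none was called, the text gives their count and range. Of other lists it names up to 4 called genes of smallest p. Members and lists were chosen with earlier results of these data known. The labels give the same extract donor for the same-numbered second-run libraries of both forms of an extract, so those numbers pair extracts, not tissues. Deviations from group means of such pairs correlated at r = -0.01 to 0.06 across genes. For tCDCA and DMSO, which share only numbers, r was -0.09 to 0.07.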

Additional observations from a re-analysis of the deposited data

Results flagged for a closer look

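In groups of 4 libraries, Dixon's ratio of the gap to the range marked 4 values, and chance marks about 1 in 20 groups. Of these, 3 belong to Asbt-/- CME(+) replicate 1, the first-run library of its group, which was far below the rest: Defa5 at 25.8 CPM, Mmp7 at 146 CPM and Lyz1 at 3141 CPM. Because the genes varied together, the 3 marks in this library are not separate events. Without that library the Defa5 change between the Asbt-/- CME(-) and CME(+) extracts was 1.19, with an edgeR adjusted p of 0.0225. The fourth is Mptx2 at 401 CPM in WT CME(-) replicate 1, also of the first run, against 143 to 180 CPM in the others.

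The removed Asbt-/- CME(-) replicate 3, which enters no comparison, lay above all 3 used DMSO libraries for 5 genes. It had 128 CPM of Defa5, 2825 CPM of Defa22, 16230 CPM of Defa24, 3680 CPM of Defa30 and 209 CPM of Mmp7. Its values were below those of both used second-run libraries of its own group for all of these except Mmp7. Lyz1, Ang4, Itln1 and Mptx2 lay within the range of the used DMSO libraries. How many of all genes lay above that range in this library was not counted.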

How the results depend on the processing

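Across 117 member changes (9 genes in 13 comparisons), 2426 of 2558 alternative values kept the sign of the reported one, 88 lost a call, 43 gained one, and no called value changed sign. Of the values of the summed Defa counts, 248 of 264 kept their sign. The number of Paneth genes called was less stable. For tCDCA against DMSO it was 4, and became 1 without scaling factors, 7 without a count filter, 0 without the run term, 0 with all 24 libraries, 1 in the second run alone, 0 with the compared groups alone, 0 without tCDCA and DMSO replicate 3 together, 0 with DMSO replicate 1 added, and 0 to 7 when single libraries were left out. For Asbt-/- CME(-) against DMSO it was 3, and became 0 without scaling factors, without the run term, with all 24 libraries, without those 2 replicates together and with DMSO replicate 1 added, 1 with the compared groups alone, 2 in the second run alone, 2 without mitochondrial rRNA and abundant unnamed rows (Defa22 at an edgeR adjusted p of 0.051), 4 without a count filter or with DESeq2, and 0 to 3 when single libraries were left out. For WT CME(-) against DMSO it was 0, and 1 without a count filter. For Asbt-/- CME(-) against CME(+) it was 1, and became 0 without scaling factors, without the run term, with all 24 libraries, in the second run alone and with DMSO replicate 1 added, 2 without those 2 replicates together, 5 without a count filter, 6 with DESeq2, 7 with the compared groups alone, and 0 to 1 when single libraries were left out. For the mean of donors it was 1, and became 0 without scaling factors, without the run term and with all 24 libraries, 2 without those 2 replicates together, 3 with the compared groups alone or DESeq2, 4 without a count filter, and 1 to 3 when single libraries were left out. The other 8 comparisons had 0 in every alternative. The cause of these changes was not tested, beyond fewer libraries where libraries were left out.

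The 2 alternatives that leave out replicate 3 of tCDCA and DMSO together or add DMSO replicate 1 were chosen after seeing the data. Leaving out scaling factors moved the median log2 change of all genes by -0.19 to 0.22, and changes there are relative to it. It changed the sign of 9 member values, none of them called, among them Defa24, Defa30, Lyz1 and Itln1 between WT CME(-) and CME(+). Over all genes, the number called ranged over the alternatives from 177 to 993 for tCDCA (745 reported), from 3 to 297 for Asbt-/- CME(-) (125), from 2 to 115 for WT CME(-) (39), from 1 to 95 for WT CME(+) (22) and from 3 to 532 for Asbt-/- CME(+) (303), each against DMSO. It ranged from 0 to 75 (3) and from 0 to 17 (0) between the forms of the Asbt-/- and WT extracts, from 1 to 206 for their mean (59), from 0 to 196 for tCDCA against WT CME(-) (71) and from 0 to 81 against Asbt-/- CME(-) (15).

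With the replicate block, 3 Paneth genes were called for tCDCA, Defa22, Defa30 and Ang4, and 3 for Asbt-/- CME(-), each against DMSO, and 1 for each of the Asbt-/- and mean CME contrasts. The block by extract donor gave Defa5 1.46 between the Asbt-/- forms (edgeR adjusted p = 0.0325). Mmp7 lost its call for tCDCA with the replicate block (0.63, adjusted p = 0.0598 in edgeR), and neither block changed another Paneth gene's call. At 3 or 4 libraries a group, changes of 1 log2 unit were mostly missed in simulated data, so uncalled genes are not shown to be unchanged.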
